A study of Drosophila melanogaster with 8 samples.

Results

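The 10 genes described here encode enzymes of glycolysis and the enzyme that follows it when pyruvate is turned to lactate. They are the genes named Hex-A, Pfk, Ald, Tpi, Gapdh1, Gapdh2, Pgk, Eno, PyK and ImpL3, chosen by name from the 13918 genes of the table, and all 10 were found there. ImpL3 is lactate dehydrogenase, called Ldh in current annotation, and Ald and PyK are aldolase and pyruvate kinase. All 10 passed the filter on low values, a mean of at least 1 transcript per 1000000 (TPM) over the libraries.

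Pupae of Drosophila melanogaster that had been at 3 g, that is in hypergravity, for all of their development were compared with controls at 1 g. Both groups were wild-type Canton-S at stage P6 (an early pupal stage), kept at 25 °C, with no other treatment, and the labels used here do not give their sex. Polyadenylated RNA was sequenced in 4 libraries per group, and 1 library stands for 4 entire animals extracted together. The values therefore mix every tissue, and fewer cells of a type cannot be told apart from less RNA per cell. Whether the pools of a group were reared separately is not stated, and the p-values then measure only the spread between pools, which may be technical.

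Glycolysis splits glucose to pyruvate in the cytosol and yields ATP and NADH. Lactate dehydrogenase returns NADH to NAD+ by reducing pyruvate to lactate. Flies also pass these electrons to mitochondria through the glycerol-3-phosphate shuttle, which flight muscle relies on. In Drosophila larvae growth goes with high activity of glycolysis and lactate dehydrogenase, switched on by the estrogen-related receptor ERR. ImpL3 was found as a gene induced by ecdysone, the steroid that times metamorphosis.

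None of the 10 genes passed an adjusted p of 0.05 (limma across 12044 tested genes: 0 higher and 0 lower at 3 g), while 4.28% of all tested genes did (2.23% higher and 2.06% lower). With no adjustment, 4 of the 10 were at p under 0.05, ImpL3 above and Gapdh1, Ald and PyK below, against 16.3% of all tested genes (8.58% above and 7.68% below). Those 4 were also the genes whose 3 g and control libraries did not overlap, which was so for 12.5% of tested genes (6.49% with 3 g above and 6% with 3 g below). The median log2 change of the 10 was -0.26, against -0.02 for all tested genes. A log2 change is that of TPM plus 0.5, 3 g over control, and 8 of the 10 lay below 0, as did 52.8% of tested genes, while 47.2% lay above 0.

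**Figure D1:**
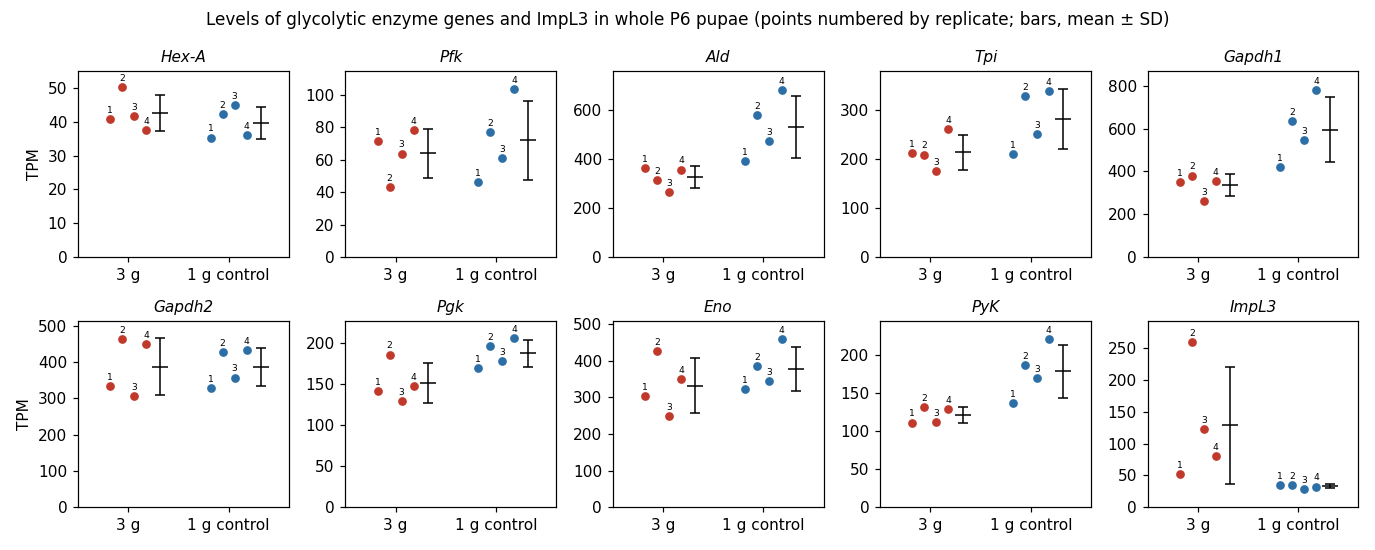
TPM of the 10 genes in pathway order, in each pool at 3 g (red) and at 1 g (blue), with the replicate number above each point and the mean ± SD of the 4 pools beside it. ImpL3 lies between 52.2 and 259 TPM at 3 g and between 29.3 and 35.5 TPM in controls, while Gapdh1, Ald and PyK at 3 g lie below every control.

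In hexokinase, which traps glucose in the cell as glucose 6-phosphate, the groups lay on top of each other. Hex-A was at 40.7, 50.2, 41.6 and 37.6 TPM in 3 g replicates 1 to 4, against 35.3, 42.1, 45.02 and 36.0 TPM in control replicates 1 to 4. Its log2 change was 0.10 ± 0.14 (SE, n = 4 pools per group), with a 95% interval of -0.22 to 0.42. Phosphofructokinase, the regulated step that commits the sugar to glycolysis, spread widely in both groups. Pfk was at 71.4, 43.3, 63.9 and 78.2 TPM at 3 g, against 46.3, 77.0, 61.2 and 103 TPM in controls. Low and high pools occurred in both groups, and the interval of its log2 change ran from -0.78 to 0.51.

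Aldolase splits the 6-carbon sugar phosphate into triose phosphates. Ald was at 362, 315, 265 and 356 TPM at 3 g, against 391, 577, 473 and 681 TPM in controls. Every pool at 3 g lay below every control, although only narrowly below control replicate 1. The log2 change was -0.69 ± 0.19 (SE) and did not pass (adjusted p = 0.0984, limma). In the annotation an antisense RNA overlaps exons of Ald on the other strand, and the labels do not say whether reads were assigned by strand. Tpi, the isomerase that interconverts the triose phosphates, was at 212, 209, 175 and 261 TPM at 3 g, against 210.4, 328, 251 and 338 TPM in controls. Here the groups overlapped, with control replicates 1 and 3 among the 3 g values (log2 change -0.38 ± 0.19, SE, adjusted p = 0.402).

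Glyceraldehyde-3-phosphate dehydrogenase, the step that makes NADH, has a pair of gene copies that differed in their values. Gapdh1 was at 349, 381, 260.4 and 353 TPM at 3 g, against 418, 636, 546 and 779 TPM in controls. All 4 pools at 3 g lay below all 4 controls. The log2 change was -0.80 ± 0.21 (SE, 95% interval -1.28 to -0.32) with an adjusted p of 0.0794. Gapdh2 was at 333, 462, 306 and 448 TPM at 3 g, against 329, 428, 357 and 434 TPM in controls. Its group means were 387 ± 79.1 TPM at 3 g and 387 ± 51.9 TPM in controls (SD, n = 4), and the interval of its log2 change, -0.41 to 0.39, includes 0 near its middle. Gapdh1 and Gapdh2 are similar copies, so their single levels are uncertain where reads match both.

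Below this step lie the enzymes that lead to pyruvate, of which Pgk and PyK recover ATP. Pgk, phosphoglycerate kinase, was at 141, 185, 129.5 and 147.5 TPM at 3 g, against 169, 195, 177 and 205 TPM in controls. Only 3 g replicate 2 reached into the range of the controls (log2 change -0.32 ± 0.14, SE, adjusted p = 0.314). Eno, enolase, was at 303, 427, 249 and 349 TPM at 3 g, against 324, 386, 345 and 460.1 TPM in controls, with overlapping groups (log2 change -0.20 ± 0.19, SE, adjusted p = 0.689). Both Pgk and Eno overlap another gene on the other strand in the annotation (Cwc25 and Rrp40). PyK, pyruvate kinase, was at 111, 132, 112 and 129 TPM at 3 g, against 137, 187, 169.5 and 221 TPM in controls. Its pools at 3 g lay close together and below every control, although only narrowly below control replicate 1 (log2 change -0.54 ± 0.16, SE, 95% interval -0.91 to -0.17, adjusted p = 0.122).

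The gene of the last step, ImpL3, had the largest fold difference between group means of the 10. It was at 52.2, 259, 122 and 80.2 TPM at 3 g, against 35.3, 35.5, 29.3 and 32.7 TPM in controls. Every pool at 3 g lay above every control, and the pools at 3 g differed among themselves by 4.96-fold, against 1.21-fold in controls. The means were 128 ± 91.6 TPM at 3 g and 33.2 ± 2.86 TPM in controls (SD, n = 4). On the log2 scale the change was 1.68 ± 0.44 (SE, 95% interval 0.68 to 2.69), or 3.21-fold, and the adjusted p was 0.0774. By level ImpL3 ranked between 501 and 3129 of 13918 genes in the libraries at 3 g, and between 4091 and 4974 in those of controls.

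Which libraries are in the fit decided on which side of the threshold ImpL3 and Gapdh1 stood. Without 3 g replicate 1, the lowest of its group, ImpL3 had a log2 change of 2.03 (adjusted p = 0.0400, limma), and without 3 g replicate 2, the highest, 1.26 (adjusted p = 0.0571). Without control replicate 1, Gapdh1 had a log2 change of -0.96 (adjusted p = 0.0407). Leaving out any other single library left none of the 10 past the threshold, with 4 to 5 of them at an unadjusted p under 0.05.

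In order of level the genes ran alike in part of the pathway. In pools at 3 g, Gapdh2, Gapdh1, Eno and Ald came first, with means of 387, 336, 332 and 324 TPM and overlapping ranges. Tpi followed, apart from Ald, at 214 TPM, then Pgk at 151, ImpL3 at 128 and PyK at 121 TPM, each overlapping the next. Pfk and Hex-A were lowest at 3 g, at 64.2 and 42.5 TPM. In controls Gapdh1 and Ald came first, at 595 and 530.4 TPM, before Gapdh2 at 387, Eno at 379 and Tpi at 282 TPM, with each range overlapping the next. Pgk and PyK stood at 187 and 179 TPM, Pfk at 72.0 and Hex-A at 39.6 TPM, and ImpL3 was last at 33.2 TPM, overlapping Hex-A. The 10 genes together held 1724 to 2464 TPM per library at 3 g, against 2095 to 3290 TPM in controls.

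Ratios within a library do not depend on how libraries are scaled against each other, and 4 were tested. Transcripts of Gapdh1 per transcript of Gapdh2 numbered 1.05, 0.824, 0.850 and 0.789 at 3 g, against 1.27, 1.49, 1.53 and 1.80 in controls. Thus Gapdh1 made up 46.6% ± 3.17 of the pair at 3 g and 60.1% ± 3.39 in controls (SD, n = 4). The log2 ratio was lower at 3 g by a difference of -0.79. The exact two-sided permutation test gave p = 0.0286, the smallest that 4 against 4 allow, and 0.0381 adjusted over the 4 ratios. Gapdh1 alone already separated the groups without passing (adjusted p = 0.0794, limma), so this p is not independent of that gene. The adjusted value also counts the ImpL3 to PyK and ImpL3 to Gpdh ratios, tied at the same p, and so depends on both. Leaving out any 1 library gave a permutation p of 0.0571, the smallest then possible.

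ImpL3 per PyK sets the enzyme that uses pyruvate for lactate against the one that makes pyruvate. It was 0.468, 1.96, 1.09 and 0.620 at 3 g, against 0.258, 0.190, 0.173 and 0.148 in controls. The log2 difference was 2.22. Since every pool at 3 g lay above the controls for ImpL3 and below them for PyK, these ratios could not overlap, and their p is not evidence beyond that of the single genes, neither of which passed. ImpL3 per Gpdh, the cytosolic glycerol-3-phosphate dehydrogenase that competes for NADH, was 0.814, 4.78, 1.31 and 2.31 at 3 g, against 0.596, 0.693, 0.431 and 0.668 in controls. It was higher at 3 g by 1.64 on the log2 scale (exact permutation p = 0.0286, adjusted 0.0381). ImpL3 alone already separated the groups, and Gpdh had a log2 change of 0.04 (adjusted p = 0.961, limma). This p therefore mostly restates ImpL3, which did not pass. For Hex-A per Hex-C, another hexokinase, at most at 1.84 TPM in any library, the ratio ran from 20.4 to 152 at 3 g and from 59.8 to 107 in controls, and the groups overlapped (exact permutation p = 0.600, adjusted 0.600).

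**Figure D2:**
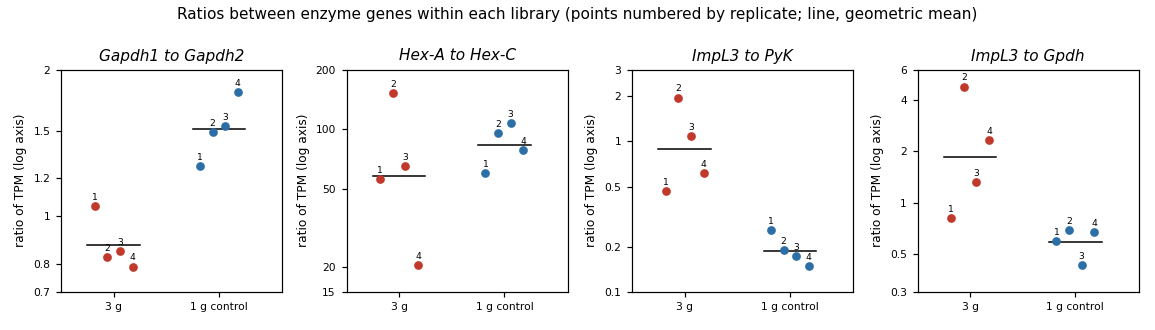
Ratios of TPM between pairs of enzyme genes in each pool at 3 g (red) and 1 g (blue), on log axes, with the replicate number above each point and a line at the geometric mean. Gapdh1 to Gapdh2 lies lower, and ImpL3 to PyK and ImpL3 to Gpdh lie higher, in all 4 pools at 3 g, while Hex-A to Hex-C overlaps.

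Of the genes that carry NADH electrons into mitochondria, 2 of 6 fell and 0 rose at 3 g (2.06% of all tested genes were called lower). Gpo-1, the mitochondrial glycerol-3-phosphate oxidase of the shuttle, was at 20.7, 25.6, 20.7 and 20.4 TPM at 3 g, against 44.4, 101, 75.5 and 176 TPM in controls. All 4 pools at 3 g were below every control, with replicate 2 somewhat above the other 3, and controls differed among themselves by 3.97-fold. The log2 change was -1.99 ± 0.37 (SE, n = 4 per group, adjusted p = 0.0276, limma). Mdh2, the mitochondrial malate dehydrogenase, was at 159, 165, 132 and 132 TPM at 3 g, against 216, 323, 262 and 407 TPM in controls with a log2 change of -1.003 ± 0.20 (SE) and an adjusted p of 0.0342. Their cytosolic partners did not pass: Gpdh was at 61.5 ± 24.4 TPM at 3 g and 56.8 ± 8.65 TPM in controls, and Mdh1 at 187 ± 28.8 and 167 ± 9.94 TPM (SD, n = 4). Gpo-1 lost its call when any of control replicates 2 and 3 and 3 g replicates 1, 3 and 4 was left out (adjusted p up to 0.0986), and Mdh2 passed only without control replicate 1 or 4 among the single libraries (adjusted p up to 0.120 without the others).

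Genes that bring pyruvate into mitochondria and to acetyl-CoA had 0 of 7 past the threshold by limma, with a median log2 change of -0.57. With no adjustment 4 were below controls and 0 above at p under 0.05, against 7.68% and 8.58% of all tested genes. CG7430, in RefSeq the dihydrolipoyl dehydrogenase locus, was at 126 ± 11.6 TPM at 3 g and 199.9 ± 38.6 TPM in controls (SD, n = 4), and l(1)G0334, the E1 alpha subunit of pyruvate dehydrogenase (Pdha), at 74.0 ± 8.18 and 114 ± 21.8 TPM. In both the groups did not overlap (adjusted p = 0.0630 and 0.0894, limma). Without control replicate 1, CG7430 passed (adjusted p = 0.0448).

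Alongside glycolysis, the pentose phosphate pathway makes NADPH, and 1 of its 6 tested genes rose while 0 fell (2.23% of all tested genes were called higher). Pgd, phosphogluconate dehydrogenase, was at 58.9, 63.6, 71.9 and 55.6 TPM at 3 g, against 45.4, 40.5, 41.2 and 42.0 TPM in controls. All pools at 3 g were higher (log2 change 0.55 ± 0.12, SE, adjusted p = 0.0390, limma), but the call was lost without any single one of the 8 libraries, with adjusted p between 0.0577 and 0.139. Genes of sugar stores and uptake had 0 of 14 tested members past the threshold by limma. At an unadjusted p under 0.05, 2 were above and 1 below, against 8.58% and 7.68% of all tested genes. Glycogen synthase, GlyS, was at 66.1 ± 15.04 TPM at 3 g and 41.0 ± 2.18 TPM in controls, and UGP, which makes the UDP-glucose that glycogen is built from, at 69.0 ± 6.53 and 53.8 ± 3.54 TPM (SD, n = 4). Neither passed (adjusted p = 0.0965 and 0.146), but GlyS did without 3 g replicate 4 (adjusted p = 0.0208) and with sample weights (adjusted p = 0.00999).

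Known regulators of glycolytic genes had 0 of 10 past the threshold by limma. At an unadjusted p under 0.05 there was 1 of them, against 16.3% of all tested genes. That was sima, the hypoxia-inducible factor alpha subunit, at 66.6 ± 6.03 TPM at 3 g and 49.8 ± 4.40 TPM in controls (SD, n = 4, adjusted p = 0.104). Hph, the prolyl hydroxylase that marks this factor for destruction, was at 36.0, 124, 71.0 and 31.5 TPM at 3 g, against 36.5, 33.1, 31.6 and 30.2 TPM in controls. Only 3 g replicates 2 and 3 stood above the controls, the same pools in which ImpL3 was highest, and the adjusted p was 0.434. ERR was at 21.5 ± 3.41 TPM at 3 g and 17.4 ± 3.24 TPM in controls (SD, n = 4, adjusted p = 0.518), with overlapping groups.

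**Figure D3:**
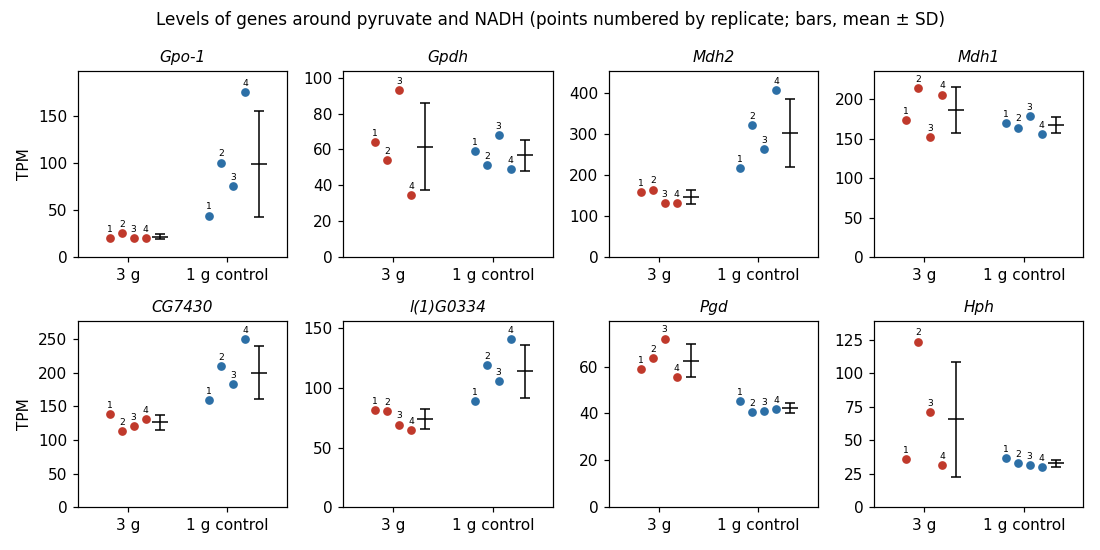
TPM of 8 genes around pyruvate, NADH and hypoxia in each pool at 3 g (red) and 1 g (blue), with the replicate number above each point and the mean ± SD beside it. Gpo-1 and Mdh2 lie lower and Pgd higher in all pools at 3 g, and Hph is above the controls only in 3 g replicates 2 and 3.

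**Figure D4:**
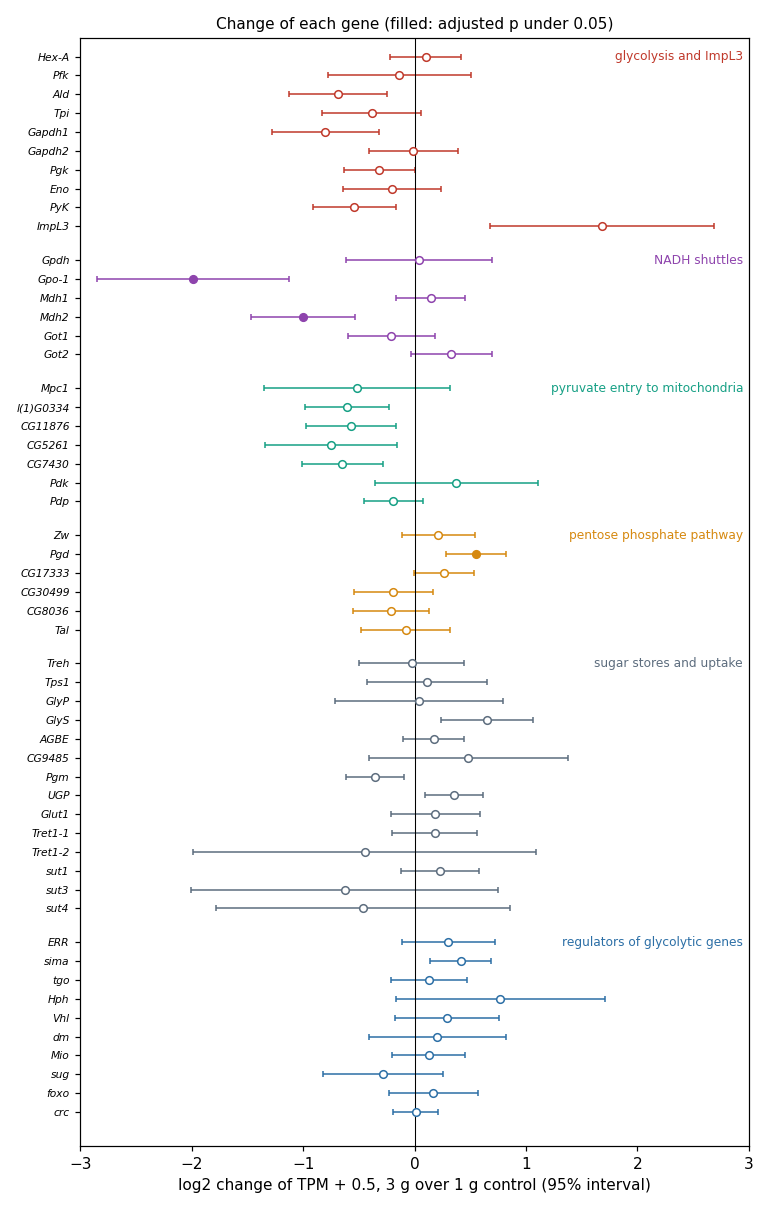
Log2 change of TPM plus 0.5, 3 g over control, with its 95% interval not adjusted for the number of genes, for the 10 genes in pathway order and for the lists around them. Filled points have an adjusted p under 0.05, which only Gpo-1, Mdh2 and Pgd reach among those shown.

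Other glycolytic enzymes and paralogs of the 10 had 0 of 19 tested members past the threshold by limma, with a median log2 change of -0.56. At an unadjusted p under 0.05 there were 0 of them, against 16.3% of all tested genes. The 2 with the smallest p were Pfrx, which makes the activator of phosphofructokinase, at 23.2 ± 4.41 TPM at 3 g and 18.7 ± 1.86 TPM in controls, and Pglym78, phosphoglycerate mutase, at 98.5 ± 16.4 and 135 ± 51.3 TPM (SD, n = 4, adjusted p = 0.439 and 0.567). In this list 3 g replicate 2 was the lowest of all 8 libraries for 13 of 20 genes, the testis hexokinase genes Hex-t1 and Hex-t2 among them. Averaged over the 20 genes, the log2 deviation from each gene's mean was -1.25 in that pool. It was 0.07 to 0.28 in the other pools at 3 g, and -0.22 to 0.39 in controls. Replicate 2 at 3 g was also lowest for 5 of 7 genes of pyruvate entry, 2 of 24 muscle genes and 1 of 10 neuronal genes. The share over all tested genes was not taken. Hex-t2, chosen here after its values were seen, was at 73.7, 12.5, 68.1 and 69.6 TPM at 3 g, against 45.1, 93.9, 63.1 and 104 TPM in controls. Markers of the male germline were lowest in the same pool for 13 of 14 genes, and none was at 0 in any library. Their sum was 940 TPM in 3 g replicate 2 and 5154 to 5567 TPM in the other pools at 3 g, against 3484 to 7896 TPM in controls. By limma 0 of these 14 germline genes passed, with 0 at an unadjusted p under 0.05, and their part in the values of the paralogs was not tested. Among the 10 genes, Pfk was the one with its lowest value in 3 g replicate 2.

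**Figure D5:**
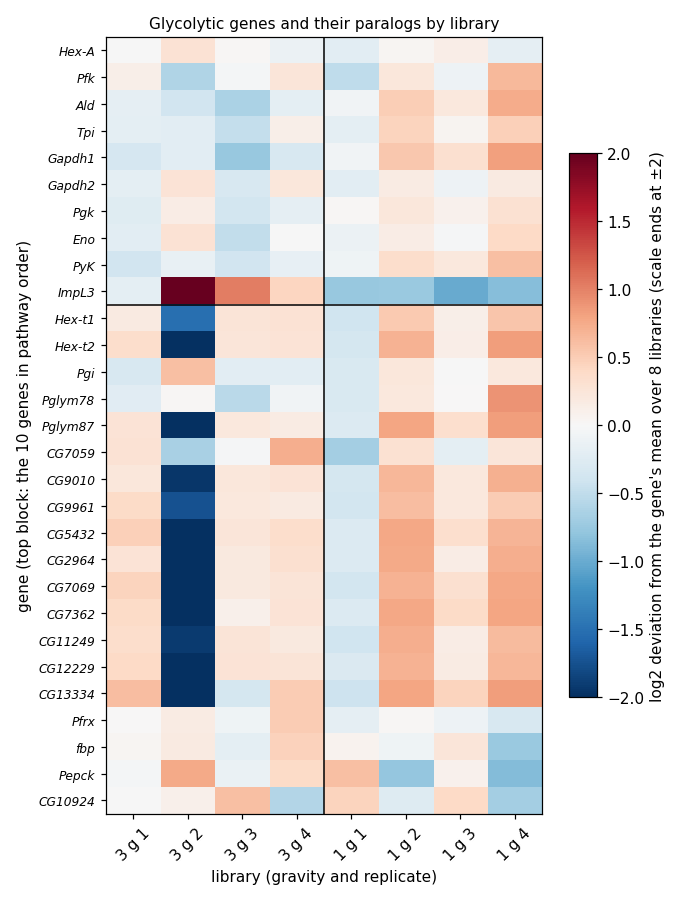
Deviation of each library from the gene's mean over the 8 libraries, in log2 of TPM plus 0.5 with the scale ending at ±2, for the 10 genes in pathway order (above the line) and 19 other glycolytic genes and paralogs. 3 g libraries stand left of the controls, ImpL3 is highest in 3 g replicate 2, and a block of paralogs is lowest there.

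Within the controls, 8 of the 10 genes, all but Hex-A and ImpL3, were highest in replicate 4, then 2, 3 and 1, an order that 10.3% of all tested genes had. Control replicate 4 was the highest of all 8 libraries for 7 of the 10. The same held for 9 of 14 male germline genes, 5 of 10 neuronal genes and 8 of 20 other glycolytic genes and paralogs, but for 0 of 7 fat body genes. The share over all tested genes was not taken. The order of the controls was also frequent in 9 of 14 male germline genes, 8 of 19 other glycolytic genes and paralogs, and muscle genes. It was seen in 0 of 7 fat body genes and 1 of 10 neuronal genes. Of 24 muscle genes 11 fell, 0 rose and 13 did not pass, while 2.06% of all tested genes were called lower and 2.23% higher. Over the controls 16 of 24 had the same order, and 22 were highest in control replicate 4. Gpo-1 and Mdh2 also had this order, as did 5 of 7 genes of pyruvate entry. The muscle genes summed to 3966 to 5632 TPM at 3 g. In controls they summed to 8743 to 12705 TPM in replicates 1 to 3 and 26758 TPM in replicate 4. At 3 g the muscle sum was highest in replicate 1, while that of the 10 genes was highest in replicate 2. None of the muscle genes was at 0. The 4 of smallest p were TpnC4, Act79B, Mlp60A and fln, with log2 changes of -2.20, -2.26, -2.08 and -3.21. The 11 muscle genes became 1 when control replicate 2 was left out and 4 when control replicate 3 was. They became 13 without control replicate 1 and 13 without control replicate 4. Leaving out 3 g replicates 1 to 4 in turn gave 5, 6, 4 and 6. Without control replicate 4 the log2 changes were -0.66 for Gapdh1, -0.56 for Ald and -0.43 for PyK (adjusted p between 0.152 and 0.193). What muscle RNA contributes to the levels of the 10 genes, of Gpo-1 and Mdh2 or of the pyruvate genes was not tested.

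Genes with the most similar pattern to ImpL3 over the 8 libraries, among 10270 with a mean of at least 5 TPM, were CG10863 (Pearson r = 0.96), CG16772 (0.94), veil (0.94), CG10570 (0.93) and CG42502 (0.93). CG10570 and CG42502 hold identical values and are not measured apart. These coefficients are a description, since the 8 libraries include both groups and share any difference between them. To the mean deviation of the other 9 genes the most similar were Nc73EF (0.96), mRpL28 (0.95), Pglym78 (0.94), Mal-B2 (0.94) and AstA (0.94), of which Pglym78 is the phosphoglycerate mutase that acts between Pgk and Eno.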

How the data were processed

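The deposited table holds 1 whole number per gene and library, treated as a score and read as TPM multiplied by 100 and rounded, since each library sums to 1000000 after division by 100, within rounding. The tools in the submitters' processing notes, listed with no role, are eXpress 1.5.1, Bowtie2 2.1.0, DESeq, Trimmomatic 0.30 and CASAVA. Whether DESeq rescaled the values the authors deposited, the genome build and the strand setting are not given here. Depth is unknown, so no counting interval is given.

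For the 12044 genes averaging 1 TPM or more, log2(TPM + 0.5) was compared between groups in limma 3.58.1 (R 4.3.3), with an intensity trend and no covariate. P-values were adjusted by Benjamini and Hochberg over all tested genes. The model was tested on simulated data. Ratios were tested by exact permutation (scipy 1.17.1). The members and the 10 other gene lists, including markers of muscle, male germline, fat body and neurons, were chosen with earlier results of these data known. Named are the members, up to 4 called genes of each list (2 of smallest p where none was called), the genes of the ratios and the 5 most similar genes to each pattern. ERR, Mdh1 and Hex-t2 were added after their values were seen. Alternatives changed the pseudocount (0.1 or 1), the filter (none or 5 TPM), the scaling (quantile or median-of-ratios), the variance model (untrended, robust or weighted by sample), added a block for replicate number, or left out libraries. Gene names were compared with RefSeq (Release 6 plus ISO1 MT) and overlaps were taken from Ensembl's annotation of that assembly; neither gives positions here. Promoter and protein sequences were not analysed here.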

Additional observations from a re-analysis of the deposited data

Results flagged for a closer look

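Values of the named genes and ratios were screened for a pool that stands apart from the other 3 of its group, in 72 groups of 4, where about 1 in 20 is flagged by chance. None of the 10 glycolytic genes and none of the 4 ratios had such a pool. Gpo-1 was at 25.6 TPM in 3 g replicate 2 and at 20.4 to 20.7 TPM in the other pools at 3 g. TpnC4, a troponin C of flight muscle, was at 736 TPM in control replicate 4 and at 332 to 398 TPM in the other controls. The male germline genes Mst84Db and Mst84Da were at 128 and 114 TPM in 3 g replicate 2, against 660.2 to 679 TPM and 616 to 661 TPM in the other pools at 3 g. Fbp1, a fat body gene, was at 146 TPM in control replicate 1 and at 61.1 to 63.7 TPM in the other controls.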

How the results depend on the processing

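The number of the 10 genes past the threshold was 0 under every alternative but 3. With sample weights, whose estimation stopped short of its convergence tolerance, 1 was higher (ImpL3) and 4 lower (Gapdh1, Ald, Pgk and PyK). Leaving out 1 library gave 0 to 1 higher and 0 to 1 lower. All genes called higher numbered 268, and 505 with sample weights, 87 with the replicate block, 108 without both 3 g replicate 2 and control replicate 4, and 112 to 248 with 1 library left out. Those lower numbered 248, and 688, 60, 120 and 50 to 245 under the same alternatives. The replicate numbers do not pair the pools by the labels, and deviations of same-numbered pools correlated between -0.52 and 0.08. With the replicate block 0 of the NADH shuttle genes and 0 of the pentose phosphate genes passed, with 5 muscle and 0 neuronal genes lower. Under the block in the ratio tests, the mean differences of the 4 ratios were as before, and 4 pairs cannot give a p below 0.125.

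With sample weights 1 gene of sugar stores was higher (GlyS) and 1 lower, 3 of pyruvate entry were lower, 1 regulator (sima) was higher, and 17 muscle and 4 neuronal genes were lower. Median-of-ratios rescaling left 1 shuttle gene lower, 0 pentose phosphate genes higher and 0 neuronal genes lower, quantile normalization 0 and 0 of the last 2, and a minimum of 5 TPM 1 neuronal gene. Without both 3 g replicate 2 and control replicate 4, 1 shuttle gene, 0 pentose phosphate genes and 0 neuronal genes passed. Leaving out 1 library gave 0 to 1 gene of sugar stores higher, 0 to 2 shuttle genes lower, 0 to 1 of pyruvate entry lower, 0 of pentose phosphate higher, 1 to 13 muscle genes lower and 0 to 4 neuronal genes lower. The causes were not tested.

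ImpL3 kept its direction under all 19 alternatives (log2 change 1.26 to 2.03), as did Gapdh1 (-0.96 to -0.66), Ald (-0.82 to -0.55), PyK (-0.66 to -0.43), Pgk, Tpi and Eno. The sign turned for genes near 0. Gapdh2 was at 0.022 with quantile normalization, and with 1 library left out between -0.10 (3 g replicate 2) and 0.093 (3 g replicate 3), above 0 also without 3 g replicate 1 (0.054) and control replicates 2 (0.040) and 4 (0.047). Hex-A was at -0.12 with sample weights and -0.024 without both pools, and up to 0.16 with 1 library left out. Pfk was at 0.13 with sample weights and 0.23 without both pools, and ranged from -0.33 without control replicate 1 to 0.06 without control replicate 4, with 0.041 when 3 g replicate 2 was dropped. Gpdh was at -0.081 with sample weights, and ranged from -0.19 without 3 g replicate 3 to 0.28 without 3 g replicate 4, with -0.0087, -0.0069 and -0.027 on dropping 3 g replicate 1, control replicate 2 and control replicate 4. Depth is unknown, so what it limits cannot be given.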

Other observations

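The fat body, where larvae store glycogen and fat, was represented by 7 tested genes, of which 2 rose, 0 fell and 5 did not pass (limma, 5 higher at an unadjusted p under 0.05). Of all tested genes 2.23% were called higher, and 8.58% were higher at that unadjusted p. The larval serum protein gene Lsp1gamma was at 985 ± 406 TPM at 3 g and 79.0 ± 11.5 TPM in controls, and Fbp1, the receptor for such proteins, at 4911 ± 3627 and 83.2 ± 41.9 TPM (SD, n = 4). The summed level of the list was 5925 to 18534 TPM at 3 g, against 1737 to 3524 TPM in controls.

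Of 10 neuronal genes 2 fell, 0 rose and 8 did not pass (limma, 5 lower at an unadjusted p under 0.05), against 2.06% of all tested genes called lower and 7.68% lower at that unadjusted p. Snap25, which helps vesicles fuse at synapses, was at 15.3 ± 0.849 TPM at 3 g and 26.5 ± 4.85 TPM in controls, and the sodium channel gene para, at 2.33 ± 0.535 and 5.50 ± 1.49 TPM (SD, n = 4). The summed level was 146 to 213 TPM at 3 g, against 218 to 233 TPM in controls. Leaving out single libraries left 0 to 4 of them past the threshold.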
